A study of Homo sapiens with 9 samples.

Results

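The 10 genes described here encode secreted interleukins and colony-stimulating factors and were taken by name from the 16366 genes of the study's expression table: CSF2, CSF3, IL6, LIF, IL24, IL17C, IL23A, IL1A, IL1B and IL1RN. They were chosen with earlier results of these data known. Their mRNA was measured by poly(A) RNA sequencing in Cal-27, a human line of squamous carcinoma cells from the tongue whose genotype is labelled WT. Over 48 h of co-culture, one group of cells received exosomes made by cancer-associated fibroblasts (CAF exosomes), another received exosomes labelled hOMF (also written HOMF and hMOF in the labels, and not spelled out), and the remaining group served as control. Each of the 3 groups held 3 libraries. The sources used here do not give the dose of exosomes, their donors or what the control cells received. The labels call the libraries replicate samples without naming separate cultures, so p-values reflect only how these samples vary, which may be technical.

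Interleukins and colony-stimulating factors are small secreted proteins that bind receptors on neighbouring cells and on the cell that made them. CSF2 (GM-CSF) and CSF3 (G-CSF) drive the production and activation of granulocytes and macrophages. IL6 and LIF signal through the shared receptor chain gp130 (IL6ST) to the kinases of the JAK family and the transcription factor STAT3. IL1A and IL1B are alarm signals of epithelium and myeloid cells that act on the receptor IL1R1, and IL1RN encodes the antagonist that occupies the same receptor without signalling. Squamous carcinoma cells are known to release several of these factors, and fibroblasts near a tumour respond to them. Many of the genes are switched on by NF-kB and AP-1, and many of their mRNAs are short-lived because of AU-rich elements, runs of the pentamer ATTTA in the 3′ untranslated region (UTR) that recruit decay proteins of the ZFP36 family. Only mRNA was measured, so no value below is an amount of secreted protein.

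The AU-rich stretches are shown because they are a feature that the choice of genes by name did not use. At least 1 pentamer occurs in 9 of the 10 mRNAs and in 70.1% of the 3′ UTRs of tested genes, so its presence alone sets none of them apart. For each gene the 30 bases of the 3′ UTR with the most ATTTA pentamers are printed from the GENCODE 29 transcript, 5′ to 3′ on the gene's own strand, and capitals mark the pentamers.
CSF2: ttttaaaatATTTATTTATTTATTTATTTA
CSF3: tcccatgtATTTAtctctATTTAatATTTA
IL6: ttttaattatttttaATTTAttaatATTTA
LIF: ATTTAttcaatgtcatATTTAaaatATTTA
IL24: agattcttgtATTTAttacaactctATTTA
IL17C: cccctATTTAtgtgtATTTAttgttATTTA
IL23A: cagtttggggaggattATTTAttgtATTTA
IL1A: tATTTAtatatgtATTTAtaaatatATTTA
IL1B: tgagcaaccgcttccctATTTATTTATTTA
On GRCh38 these stretches lie at chr5:132076072-132076101 (plus strand) for CSF2, chr17:40016975-40017004 (plus) for CSF3 and chr7:22731697-22731726 (plus) for IL6. They lie at chr22:30240522-30240551 (minus) for LIF, chr1:206903274-206903303 (plus) for IL24 and chr16:88640126-88640155 (plus) for IL17C. The remaining stretches lie at chr12:56340335-56340364 (plus) for IL23A, chr2:112774424-112774453 (minus) for IL1A and chr2:112830003-112830032 (minus) for IL1B. The CSF2 stretch holds 5 overlapping pentamers, and 0.183% of 12007 UTRs of tested genes have a stretch of the same length with as many. The stretches of CSF3, LIF, IL17C, IL1A and IL1B hold 3 pentamers, a number reached in 2.83% of those UTRs, and those of IL6, IL24 and IL23A hold 2, reached in 23.2%. The 3′ UTR of IL1RN, 1145 bases long, holds 0 pentamers.

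The libraries held between 11185672 and 12779101 expected counts, and 12470 genes had enough counts to be tested, among them 9 of the 10 genes described here. Changes are given on the log2 scale, with the standard error (SE) of the quasi-likelihood fit of edgeR, and a gene counts as called where its p adjusted by Benjamini-Hochberg lies under 0.05. One library stood apart. Control replicate 3 held 86 genes with at least 30 counts and at most 10% as many in the other 8 libraries together, against 0 in 7 of the other libraries and 1 in hOMF replicate 1. Those 86 genes took 0.0914% of the library's counts. The 10 genes described here could not be among them, since each had too few counts there or too many in the other libraries. Their absence therefore does not show that this library's values for them are unaffected. Genes of blood cells were among the 86, though how many was not counted. The granule protease gene ELANE had 647 counts in control replicate 3 and 0 to 3 in the others. The leukocyte gene PTPRC had 94 against 0 to 1, and CD4 148 against 0. VIM (478 against 3 to 7) and NCAM1 (70 against 0) had the same pattern. The leukocyte markers CD14 (74 against 42 to 91), CD68 (406 against 325 to 416) and CSF1R (89 against 56 to 105) showed no excess. The receptor gene of G-CSF, CSF3R, had 65 counts there and 0 elsewhere. The 11 listed leukocyte markers in the table summed to 76.5 CPM (counts scaled to library size with TMM factors) in control replicate 3, to 50.8 and 47.2 in the other controls, and to 44.9 to 53.4 in the 6 exosome libraries, while CD163 and MS4A1 were at 0 there. The 9 tested genes and the counts of each gene list against control are therefore also given without this library. For the other genes named, its omission is mentioned where it ended a call or moved a called value by over 1.5 times; the other calls among them, and their directions, were the same without it. The part of blood-cell RNA in any result was not tested.

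**Figure D1:**
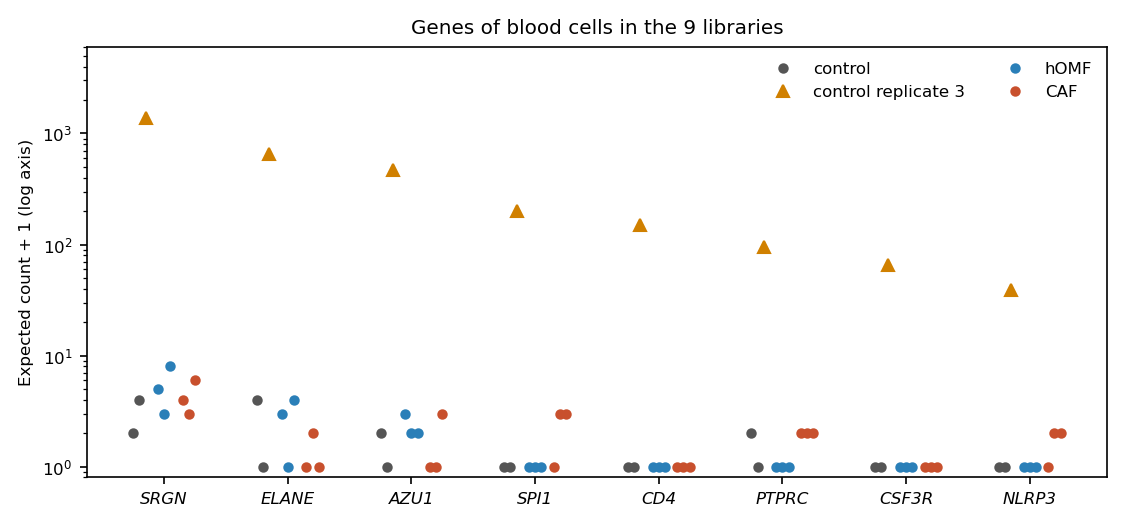
Expected counts (plus 1, log axis) of 8 genes of blood cells in the 9 libraries, 1 point per library, with control replicate 3 as an orange triangle; hOMF and CAF stand for the 2 exosome groups. Control replicate 3 had 1363 counts of SRGN and 199 of SPI1, against at most 7 and 2 in the other libraries.

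The 10 genes spanned a wide range of abundance in control cells on a scale that corrects for transcript length (TPM, which weighs counts by transcript length and library). IL1B led with 686 TPM (603.5 to 771) and rank 200 among all genes of the table by mean control TPM, followed by IL1A with 386 (354 to 416) and CSF2 with 167 (156 to 181). LIF had 55.8 TPM (47 to 62.2) and IL6 14.7 (13.4 to 15.7), and none of these 5 overlapped its neighbour in the order. Below them IL17C (8.85), CSF3 (6.42), IL23A (4.43) and IL24 (4.19 TPM) overlapped their neighbours in the control libraries, so their order is not resolved. IL1RN came last at 0.397 TPM, with 0 counts in 1 control library.

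**Figure D2:**
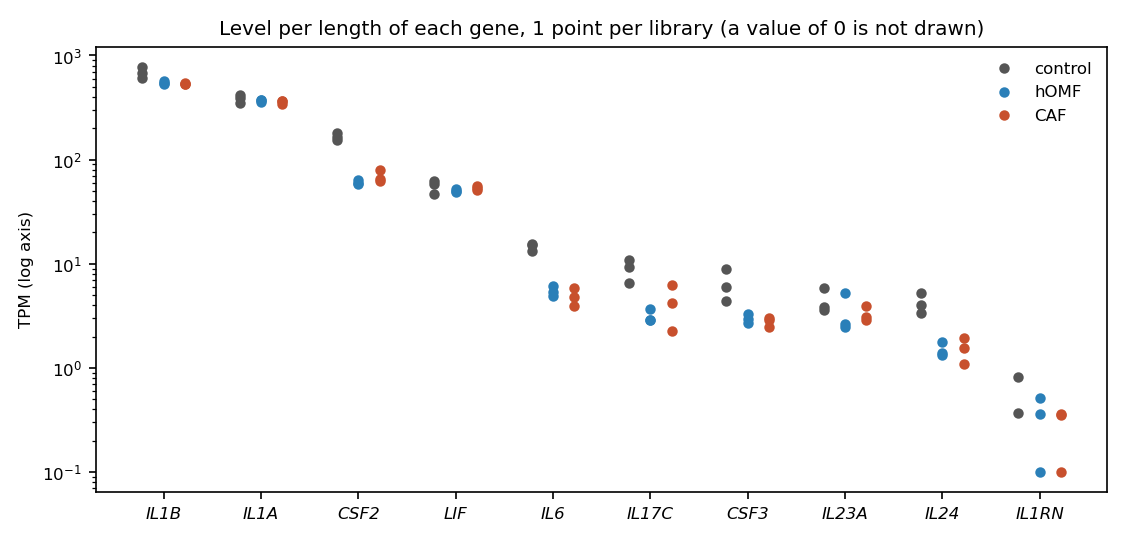
TPM (log axis) of the 10 genes, 1 point per library, by group (hOMF and CAF stand for the 2 exosome groups), ordered by mean control level; 1 control library with 0 for IL1RN is not drawn. IL1B and IL1A lead in every group, and CSF2 sits between 156 and 181 TPM in control and between 58.7 and 79.4 with exosomes.

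IL1B, IL1A, CSF2 and LIF kept this order without overlap in all groups, while IL6, next by its mean, overlapped IL17C with CAF exosomes (3.91 to 5.92 against 2.27 to 6.33 TPM) and IL23A with hOMF exosomes (4.89 to 6.1 against 2.48 to 5.27 TPM). The ratio of CSF2 to LIF in TPM was 3.32, 2.91 and 2.83 in the control libraries, 1.21, 1.17 and 1.24 with hOMF exosomes and 1.27, 1.48 and 1.12 with CAF exosomes. CSF2 thus stood well above LIF in control cells and just above it with either kind of exosome. IL1A and IL1B together made up 79.9% to 80.9% of the summed TPM of the 10 genes in control and 85.0% to 88.3% with exosomes.

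With both kinds of exosomes 6 of the 9 tested genes fell and 0 rose: CSF2, CSF3, IL6, IL24, IL17C and IL1B. The other 3, IL1A, LIF and IL23A, did not pass the test in either comparison, and all 9 estimates were below 0 in both. The background with CAF exosomes is 8.64% of all tested genes called lower and 9.51% called higher, 18.2% in either direction. With hOMF exosomes it is 11.4% lower and 11.8% higher, 23.2% in either direction. Calls at a fall of at least 2-fold were rarer, 0.361% and 0.481% of tested genes, and 5 of the 9 are among them in each comparison (all that fell except IL1B). Because the genes were chosen with earlier results of these data known, these contrasts are a description and no test of the set. The median log2 fold change of the 9 genes was -1.09 with CAF exosomes and -1.19 with hOMF exosomes, beside -0.01 and 0.00 over all tested genes. Without control replicate 3, 5 of the 9 were lower with CAF exosomes (5.58% of tested genes) and 6 with hOMF exosomes (8.1%). Under library totals with no TMM factors the calls over all genes moved from 52.4% to 63.1% higher with CAF exosomes and from 50.9% to 67.0% with hOMF exosomes, and the same number of the 9 was lower. The 2 comparisons share the control libraries, so they are not independent. In bulk RNA, fewer cells making a transcript and less of it per cell cannot be told apart.

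**Figure D3:**
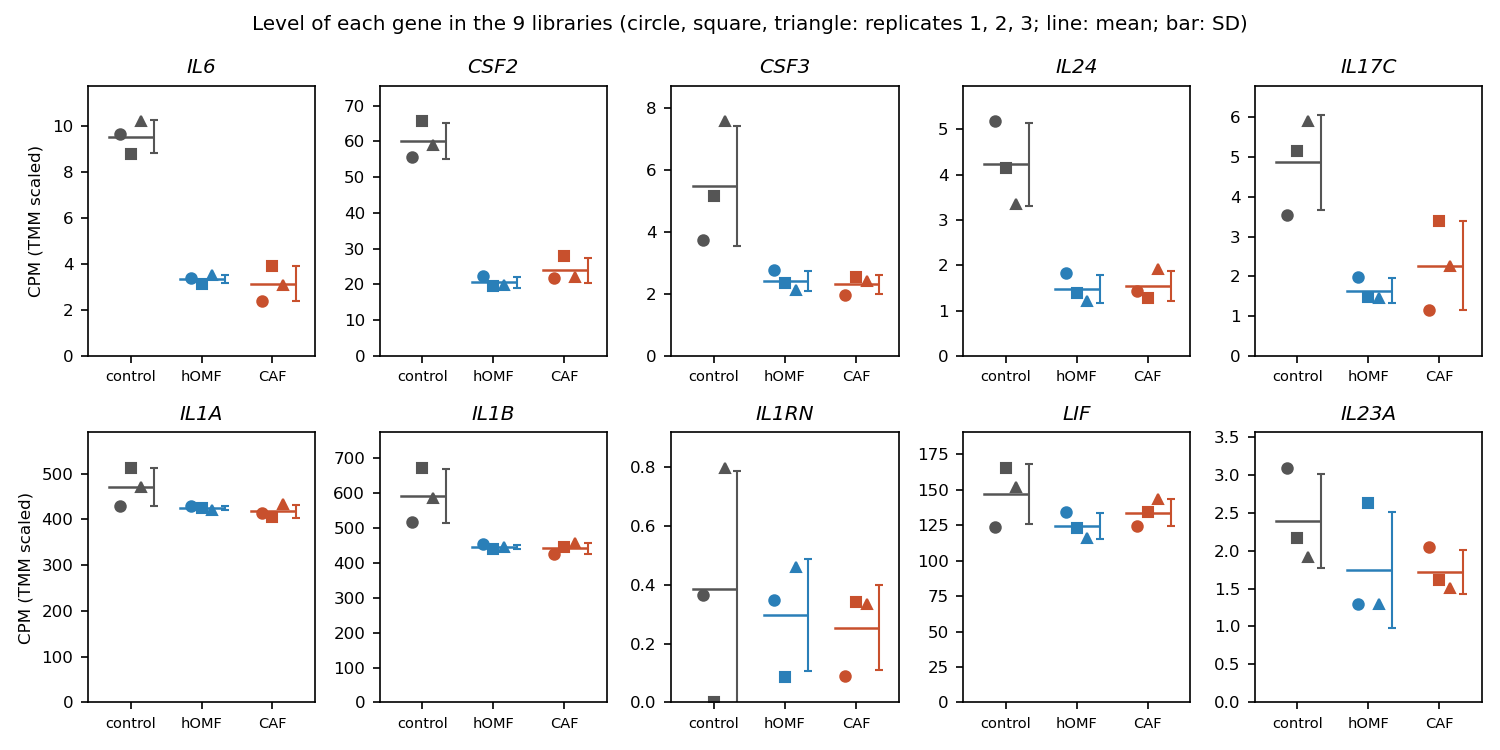
TMM-scaled CPM of the 10 genes in each library (circle, square and triangle are replicates 1, 2 and 3), with the group mean as a line and the SD (n = 3) as a bar; hOMF and CAF stand for the 2 exosome groups. For the 6 genes that fell, every exosome library lies under every control library. How many of all tested genes separate this way was not counted, so this does not set these genes apart.

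Among the colony-stimulating factors, CSF2 had the smallest p of the 10 genes in each comparison. Its level was 55.7, 65.7 and 58.9 CPM in the control libraries, 22.4, 19.7 and 19.7 with hOMF exosomes and 21.7, 28.0 and 22.1 with CAF exosomes. The highest exosome library, CAF replicate 2, stayed far under the lowest control. The fall was 2.92-fold with hOMF exosomes (log2 fold change -1.55, SE 0.10, edgeR adjusted p 3.654e-07) and 2.51-fold with CAF exosomes (-1.33, SE 0.10, adjusted p 2.919e-06). Without control replicate 3 it was -1.56 and -1.34.

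CSF3, the growth factor of neutrophil granulocytes, was among the least abundant of the 10 genes in TPM. It had 3.73, 5.15 and 7.58 CPM in control replicates 1 to 3, 2.78, 2.36 and 2.14 with hOMF exosomes and 1.96, 2.55 and 2.42 with CAF exosomes. The controls spread widely, with the highest value in the library that carries blood-cell transcripts, yet the groups did not overlap. CSF3 fell 2.38-fold with CAF exosomes (-1.25, SE 0.26, edgeR adjusted p 0.003907) and 2.28-fold with hOMF exosomes (-1.19, SE 0.25, adjusted p 0.003673). Without control replicate 3 the fall was smaller and still called, -0.94 (adjusted p 0.02014) and -0.87 (adjusted p 0.01968).

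IL6 and LIF both act through gp130 and differed in their changes. IL6, a cytokine of inflammation and of tumour and stromal cross-talk, had 9.64, 8.76 and 10.2 CPM in control, 3.38, 3.15 and 3.52 with hOMF exosomes and 2.41, 3.92 and 3.09 with CAF exosomes. No exosome library reached the level of any control. IL6 fell 3.03-fold with CAF exosomes (-1.60, SE 0.18, edgeR adjusted p 4.982e-05), the largest fall of the 9 genes there, and 2.84-fold with hOMF exosomes (-1.51, SE 0.18, adjusted p 3.899e-05). Without control replicate 3 the values were -1.55 and -1.45. LIF, which keeps cells undifferentiated in several tissues, had 124, 166 and 152 CPM in control, 134, 123 and 116 with hOMF exosomes and 125, 134 and 143 with CAF exosomes. The groups overlapped, since control replicate 1 lay within the range of the exosome libraries. The differences were -0.24 (95% interval -0.45 to -0.04, edgeR adjusted p 0.08227) with hOMF exosomes and -0.13 (-0.34 to 0.07, adjusted p 0.3511) with CAF exosomes, and leaving out control replicate 1 gave LIF a call with hOMF exosomes (-0.35, adjusted p 0.01136). They were -0.22 (adjusted p 0.1828) and -0.11 (adjusted p 0.5431) without control replicate 3. Exons of IL6 and LIF overlap annotated genes on the opposite strand in GENCODE 29 (STEAP1B and AC073072.1 for IL6, LIF-AS1 and AC004264.1 for LIF), and no source used here states whether counting used strand, so reads of the partners may be included.

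IL24, a cytokine of the IL10 family studied for killing tumour cells, had 5.18, 4.16 and 3.35 CPM in control replicates 1 to 3, 1.82, 1.40 and 1.22 with hOMF exosomes and 1.43, 1.28 and 1.92 with CAF exosomes. The exosome libraries lay below all controls. IL24 fell 2.84-fold with hOMF exosomes (-1.51, SE 0.26, edgeR adjusted p 0.0008585) and 2.72-fold with CAF exosomes (-1.44, SE 0.26, adjusted p 0.001746). Unlike CSF3 and IL17C, it had its lowest control value in replicate 3, and without that library the differences were -1.66 and -1.59.

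IL17C and IL23A belong to the axis of IL17 and IL23 that epithelium shares with lymphocytes. IL17C, an IL17 family member made by epithelial cells themselves, had 3.55, 5.15 and 5.90 CPM in control, 2.00, 1.49 and 1.45 with hOMF exosomes and 1.16, 3.40 and 2.25 with CAF exosomes. The CAF exosome libraries were the more variable, and the highest of them lay just under the lowest control. IL17C fell 2.97-fold with hOMF exosomes (-1.57, SE 0.31, edgeR adjusted p 0.002342) and 2.13-fold with CAF exosomes (-1.09, SE 0.30, adjusted p 0.0197). The CAF exosome call was lost without control replicate 3 (-0.93, adjusted p 0.07104), control replicate 2 (-1.06, adjusted p 0.06182), CAF replicate 1 (-0.79, adjusted p 0.07942) or CAF replicate 3 (-1.08, adjusted p 0.07477). The hOMF exosome call held without control replicate 3 (-1.40, adjusted p 0.01014).

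IL23A, the subunit that gives IL23 its identity, had 3.09, 2.17 and 1.91 CPM in control, 1.30, 2.62 and 1.30 with hOMF exosomes and 2.05, 1.62 and 1.50 with CAF exosomes. These ranges overlapped. The differences, -0.46 (95% interval -1.12 to 0.20, edgeR adjusted p 0.3057) and -0.47 (-1.13 to 0.20, adjusted p 0.3169), have intervals that include both no change and a fall of more than 2-fold, so the depth at this gene does not settle its direction. Leaving out control replicate 3 gave -0.60 (adjusted p 0.227) and -0.61 (adjusted p 0.253).

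The IL1 genes lie close together on chromosome 2 (GRCh38, GENCODE 29), IL1A at chr2:112773915-112784590 on the minus strand, IL1B at chr2:112829751-112836903 on the minus strand and IL1RN at chr2:113107214-113134016 on the plus strand. IL1B, which is cut by caspase-1 before release, had 517, 673 and 585 CPM in control, 453, 441 and 446 with hOMF exosomes and 426, 444 and 457 with CAF exosomes. All 6 exosome libraries lay in a narrow band under the 3 controls. IL1B fell 1.34-fold with CAF exosomes (-0.42, SE 0.08, edgeR adjusted p 0.003316) and 1.33-fold with hOMF exosomes (-0.41, SE 0.08, adjusted p 0.002852), and without control replicate 3 the values were -0.43 and -0.41.

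IL1A, which is active as made and is released by injured epithelium, had 429, 513 and 471 CPM in control, 428, 425 and 419 with hOMF exosomes and 413, 405 and 434 with CAF exosomes. In CPM only the hOMF exosome libraries lay below all controls, at the closest by 428.4 against 428.6. In TPM control replicate 1 (353.68) lay below every hOMF exosome library (358.35 to 377.57). The differences were -0.15 (95% interval -0.30 to 0.00, edgeR adjusted p 0.1481) with hOMF exosomes and -0.17 (-0.33 to -0.02, adjusted p 0.11) with CAF exosomes, and leaving out control replicate 1 gave a call with CAF exosomes (-0.23, adjusted p 0.04402). The values without control replicate 3 were -0.15 (adjusted p 0.2259) and -0.17 (adjusted p 0.1869). The ratio of IL1B to IL1A in TPM was 1.71, 1.86 and 1.76 in control, 1.49, 1.47 and 1.50 with hOMF exosomes and 1.46, 1.55 and 1.49 with CAF exosomes, so the control libraries were higher in each case.

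IL1RN was at or near the limit of detection. Its counts were 4, 0 and 10 in control, 4, 1 and 6 with hOMF exosomes and 1, 4 and 4 with CAF exosomes, 34 in all, and it did not pass the filter on low counts. The count of 0 in control replicate 2 allows a level of up to 0.271 CPM (3 counts, counting error only). In TPM the antagonist amounted to between 0 and 0.000763 of the sum of IL1A and IL1B in any library. A change of IL1RN was not detectable at this depth.

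The direct comparison of the exosome groups called 0 of the 9 genes, against 0.016% of all tested genes (0.00802% in each direction), which is 2 genes (ZNF114 and GJB2; 947 genes had an unadjusted p under 0.05 in edgeR, and DESeq2 called 32). Of the 9, 0 had an unadjusted p under 0.05 in edgeR, and DESeq2 gave an adjusted p for 3 and called 0. The median difference of the 9 was -0.01, with CAF exosomes minus hOMF exosomes as the direction. The widest estimate was for IL17C, 0.48 (95% interval -0.26 to 1.21, edgeR adjusted p 0.8188), and the narrowest intervals were for IL1A (-0.02, from -0.18 to 0.13) and IL1B (-0.01, from -0.19 to 0.16). CSF2 was 0.22 (-0.02 to 0.45, adjusted p 0.6981), with its CAF exosome libraries at 21.7 to 28.0 CPM and its hOMF exosome libraries at 19.7 to 22.4. The intervals of IL6 (-0.52 to 0.34), CSF3 (-0.66 to 0.54), IL24 (-0.57 to 0.70) and IL23A (-0.70 to 0.69) are wide, so a p above the threshold does not show that the exosomes act alike on these genes. The interval of LIF ran from -0.10 to 0.31.

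**Figure D4:**
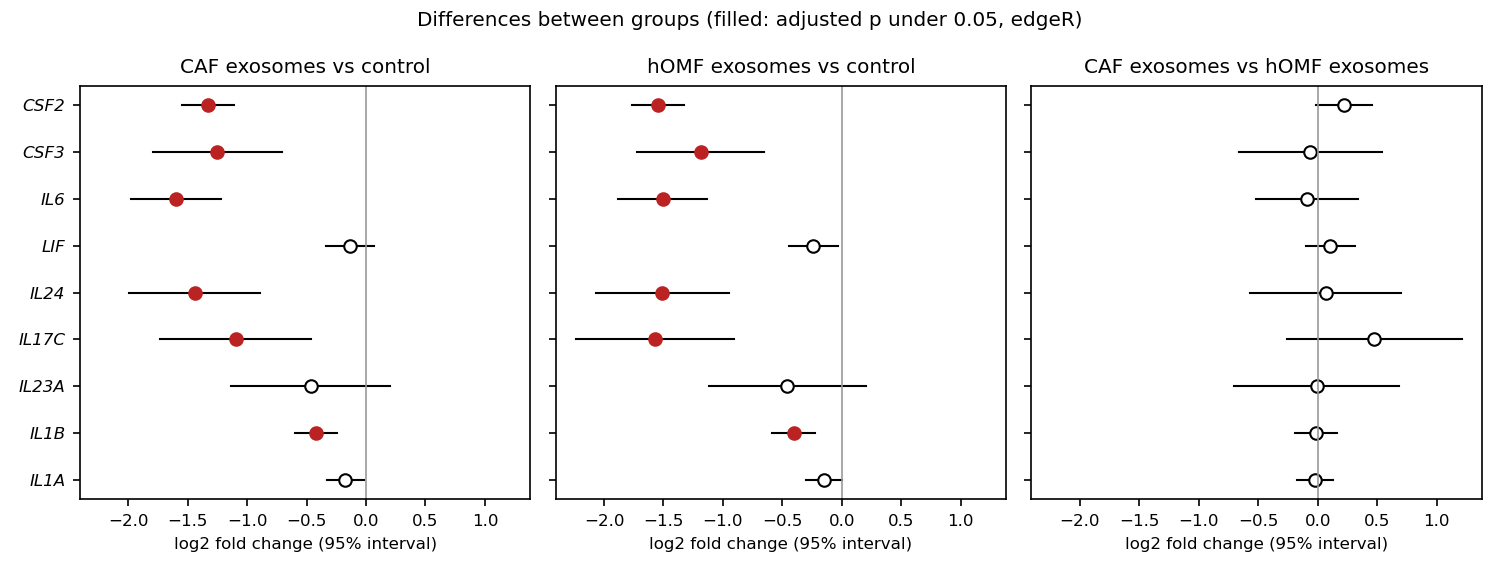
log2 fold change and 95% interval of the 9 tested genes in each comparison, with filled points for an adjusted p under 0.05 in edgeR. Against control 6 points are filled in each panel, from IL1B at -0.42 and -0.41 to IL6 at -1.60 and IL17C at -1.57; in the comparison of the exosome groups 0 are filled.

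The genes whose levels ran most like those of IL6, CSF2, CSF3 and IL24 were sought over all tested genes by the root mean square (RMS) difference of log2 CPM, each gene centred on its own mean over the 9 libraries. For IL6 the nearest was CSF2 (RMS 0.20, on an IL6 range of 2.01 log2 units), then FOXQ1, KCND3, RELN and S100A7 (0.23 to 0.29). For CSF2 it was S100A7, a small calcium-binding protein of squamous epithelium (0.16), then IL6, BCL2A1, RNF223 and CTXN1 (0.20 to 0.23). Genes near CSF3 included FOSL1, IGFBP1, MYBL2 and BCL2A1 (0.23 to 0.24), and IL24 was nearest to RNASE7, an antimicrobial ribonuclease of skin, NEDD9, RNF223, S100A7 and SOX4 (0.24 to 0.28). IL6 and CSF2 were thus each in the other's nearest 5, a description over 9 libraries in 3 groups that mostly reflects the difference from control.

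Of the 16 receptor chains of these ligands, 9 were tested, and 2 rose and 0 fell in each comparison, with a median of 0.21 with CAF exosomes and 0.16 with hOMF exosomes; without control replicate 3, 1 rose with CAF exosomes and 2 with hOMF exosomes. Beside this list and those below, 18.2% of all tested genes were called with CAF exosomes and 23.2% with hOMF exosomes. These shares were 11.5% and 16% without control replicate 3. A count near such a share does not set a list apart. IL20RB, a chain of the receptor for IL24, rose from 19.1 ± 1.93 CPM in control (SD, n = 3) to 32.9 ± 2.28 with hOMF exosomes and 32.4 ± 2.34 with CAF exosomes (log2 fold change 0.79 and 0.77, edgeR adjusted p 6.537e-05 and 0.0001436). Its ligand IL24 fell in the same libraries. LIFR, the receptor of LIF, rose from 12.5 ± 0.43 to 19.2 ± 2.52 and 17.1 ± 2.71 CPM (0.63 and 0.45, adjusted p 0.002754 and 0.02486), and the CAF exosome call was lost without control replicate 3 (adjusted p 0.05875). IL17RE, the specific chain of the IL17C receptor, did not pass (0.44 and 0.39, adjusted p 0.07366 and 0.1216), nor did IL1RAP (0.16 and 0.21). The signalling chains of the GM-CSF and G-CSF receptors, CSF2RB and CSF3R, had 0 counts in every library other than control replicate 3, where CSF2RB had 8 and CSF3R 65.

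Of 41 other interleukins, colony-stimulating factors and close relatives, 12 were tested. With CAF exosomes 1 rose and 1 fell (median -0.10), and with hOMF exosomes 1 rose and 4 fell (median -0.18); without control replicate 3, of 13 tested, these counts were 0 and 1, and 0 and 3. The share of all tested genes called was 18.2% and 23.2% with all libraries. IL11, another gp130 cytokine, fell from 10.7 ± 1.32 CPM to 6.93 ± 1.54 with hOMF exosomes and 6.34 ± 0.86 with CAF exosomes (-0.63 and -0.75, edgeR adjusted p 0.01367 and 0.007471). CLCF1, a further ligand of that receptor family, fell with hOMF exosomes (-0.53, adjusted p 0.01086) and was -0.29 with CAF exosomes (adjusted p 0.1414). CTF1 rose with both (0.42 and 0.44, adjusted p 0.01716 and 0.01822), a call lost without control replicate 3 (adjusted p 0.07383 and 0.07765). IL32 fell with hOMF exosomes (-0.29, adjusted p 0.01804) and was -0.00 with CAF exosomes (adjusted p 0.9766), and the direct comparison of the exosome groups did not call the difference. The gp130 ligands IL6, IL11, CLCF1, LIF and CTF1 thus spanned falls, no call and, with all libraries only, a rise (CTF1) in the same samples.

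Downstream of IL6 and LIF, 17 JAK, STAT, SOCS and related genes were tested, and 2 rose and 1 fell in each comparison (median -0.09 with CAF exosomes and -0.07 with hOMF exosomes). Over all tested genes 18.2% and 23.2% were called, so these counts do not set the list apart. Without control replicate 3, 1 rose with CAF exosomes and 2 with hOMF exosomes, and 0 fell. The riser with CAF exosomes there was SOCS2 (0.79, edgeR adjusted p 0.02269), which also rose with hOMF exosomes (0.94, adjusted p 0.005653). With all libraries SOCS2 was not called (-0.49 with CAF exosomes and -0.34 with hOMF exosomes). Its level in control varied widely, 9.41 ± 9.48 CPM. JAK3 rose from 2.17 ± 0.10 CPM to 4.22 ± 0.69 and 3.74 ± 0.23 (0.95 and 0.79, edgeR adjusted p 0.004314 and 0.01811), and without control replicate 3 only the hOMF exosome call held (adjusted p 0.01514, against 0.05286). PIAS3, an inhibitor of STAT3, rose slightly (0.22 and 0.23) and the phosphatase gene PTPN11 fell slightly (-0.26 and -0.29), and both calls were lost in both comparisons without that library, as was that of PTPN11 with no TMM factors. SOCS3, a feedback inhibitor that STAT3 induces, had 41.8 ± 4.87 CPM in control, 37.6 ± 0.81 with hOMF exosomes and 35.5 ± 1.54 with CAF exosomes (-0.16 and -0.24, adjusted p 0.209 and 0.07044). Of 7 tested genes that STAT3 is known to induce, SOCS3 included, 0 were called in either comparison by edgeR or DESeq2, with medians of -0.11 with CAF exosomes and -0.12 with hOMF exosomes; 2 and 0 of them had an unadjusted p under 0.05 in edgeR. Leaving out control replicate 3 also gave 0 calls.

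On the path from the receptors of IL1 and IL17, 17 genes were tested, of which 1 rose and 4 fell with CAF exosomes (median -0.14) and 2 rose and 4 fell with hOMF exosomes (median -0.08); without control replicate 3 the counts were 0 and 4 in both. Calls took 18.2% of all tested genes with CAF exosomes and 23.2% with hOMF exosomes. The kinase gene IRAK1 fell from 226 ± 18 CPM to 145 ± 6.27 with hOMF exosomes and 151 ± 2.24 with CAF exosomes (-0.65 and -0.58, edgeR adjusted p 3.028e-05 and 0.0001153). The adaptor gene MYD88 (-0.39 and -0.35) and the kinase gene IRAK2 (-0.46 and -0.30) fell as well. TNFAIP3, a target of NF-kB that restrains it, went from 283 ± 5.73 CPM to 197 ± 1.76 and 227 ± 18.4 (-0.52 and -0.32, adjusted p 0.0001201 and 0.006188).

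Of 20 tested subunits and inhibitors of NF-kB, AP-1 and C/EBP, the factors known to act at the promoters of these cytokines, 0 rose and 8 fell with CAF exosomes and 0 rose and 9 fell with hOMF exosomes (medians -0.26 and -0.19); without control replicate 3 the numbers that fell were 6 and 8. With no TMM factors 1 rose and 7 fell with CAF exosomes, and 0 rose and 7 fell with hOMF exosomes. Under the main settings 8.64% of all tested genes were called lower with CAF exosomes and 11.4% with hOMF exosomes. FOSL1, an AP-1 subunit prominent in squamous carcinoma, fell from 196 ± 32.2 CPM to 111 ± 12.8 with hOMF exosomes and 122 ± 16.8 with CAF exosomes (-0.83 and -0.69, edgeR adjusted p 0.0002081 and 0.001308). FOSL2 (-0.50 and -0.46) and JUN (-0.53 and -0.57) fell too. NFKBIZ, an atypical inhibitor that cooperates with NF-kB at IL6 and CSF2 genes, fell from 51.0 ± 3.93 to 32.6 ± 2.61 and 36.8 ± 4.36 CPM (-0.64 and -0.47, adjusted p 0.0003046 and 0.004049).

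The promoters are shown because members that fell together could be compared there. The RefSeq promoter table (GRCh38.p14) held 7 of the 10 genes, without CSF3, IL17C and LIF. In the 250 bases before the start, the AP-1 motif TGANTCA occurred for IL1A, IL1RN and IL23A, the NF-kB consensus for IL6 and IL23A, the C/EBP motif TTGCNNAA for IL1B and IL6 and the motif TATAAA for IL1A, IL1RN and IL23A, each searched on both strands. Of all 35116 promoter windows of that length, 6.57%, 9.96%, 9.05% and 10.7% hold these motifs, in the same order. Among the 14704 windows of tested genes the shares are 4.56%, 12.1%, 6.47% and 5.99%. IL1A and IL1RN have multiple windows and are counted where any of them holds the motif. The shares are per window and so are not matched to these genes. The IL6 sites are printed on the plus strand with the motif in capitals, at chr7:22727117-22727146 for NF-kB and chr7:22727034-22727063 for C/EBP, and the CSF2 window, which held none of the 4 motifs, at chr5:132073539-132073788 on the plus strand.
IL6, NF-kB: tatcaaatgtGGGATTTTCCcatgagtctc
IL6, C/EBP: aggacgtcacaTTGCACAAtcttaataagg
CSF2: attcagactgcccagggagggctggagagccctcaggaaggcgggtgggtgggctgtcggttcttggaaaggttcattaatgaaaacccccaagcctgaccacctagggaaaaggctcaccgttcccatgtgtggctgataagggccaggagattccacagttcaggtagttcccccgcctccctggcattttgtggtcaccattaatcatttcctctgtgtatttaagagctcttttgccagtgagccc
A match is a description of the letters and not a site of binding, and no match says only that these letters are not in this window. IL6, with 2 of the motifs, had CSF2, with none, as its nearest gene by RMS. CSF3 and IL17C, which also fell, had no window to compare. Whether these motifs bear on the changes was not tested.

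For the maturation and release of IL1A and IL1B, 11 of 14 listed genes were tested. With CAF exosomes 2 rose and 1 fell (median 0.03), and with hOMF exosomes 3 rose and 1 fell (median 0.12); without control replicate 3, 2 rose and 1 fell with CAF exosomes, and 3 rose and 0 fell with hOMF exosomes. In the main fit 18.2% and 23.2% of all tested genes were called. NLRP1, the inflammasome sensor of keratinocytes, rose from 21.0 ± 2.57 CPM to 38.6 ± 0.89 with hOMF exosomes and 36.3 ± 3.45 with CAF exosomes (0.87 and 0.79, edgeR adjusted p 3.158e-05 and 0.0001235). CASP1, which cuts the IL1B precursor, rose as well (0.35 and 0.31, adjusted p 0.00311 and 0.008551), and GSDMD, whose product forms the pore of release, rose with hOMF exosomes (0.29, adjusted p 0.01273, beside 0.19 and 0.09064 with CAF exosomes). CAPN2, a calpain of the family that cuts the IL1A precursor, fell (-0.22 and -0.26), with the hOMF exosome call lost without control replicate 3 (adjusted p 0.07916). The mRNA of IL1B and that of its protease therefore moved in opposite directions.

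Among 14 tested regulators of the decay of cytokine mRNAs, 1 rose and 5 fell with CAF exosomes and 1 rose and 4 fell with hOMF exosomes (medians -0.13 and -0.21), and these counts were the same without control replicate 3. Beside them, 18.2% and 23.2% of all tested genes were called with all libraries. ZFP36L1, which binds AU-rich elements and promotes decay, fell from 222 ± 15.7 CPM to 166 ± 4.30 with hOMF exosomes and 164 ± 7.41 with CAF exosomes (-0.42 and -0.43, edgeR adjusted p 0.0006731 and 0.0008426). Its relative ZFP36L2 fell by 0.67 and 0.63 on the log2 scale, and by 0.42 and 0.38 without control replicate 3. KHSRP, another decay factor, fell from 450 ± 33.2 to 339 ± 9.02 and 348 ± 18.1 CPM (-0.41 and -0.37). TIA1, which binds the same elements and restrains translation, rose (0.47 and 0.37, adjusted p 0.001864 and 0.01153).

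The density of AU-rich pentamers is described beside the changes. Over the whole 3′ UTR, CSF2 had 8 pentamers in 318 bases, which is 25.2 per kb and the 99.9 percentile of tested genes, and IL6 had 6 in 429 bases (14 per kb, 99.5 percentile). IL17C (9.98 per kb), IL1B (9.84) and CSF3 (8.2) followed among the genes that fell, at the 98.8, 98.7 and 97.8 percentiles. The median of tested genes was 1.61 per kb, and 9.52% of them had at least 5. IL24, which fell more than 2-fold, had 3.72 per kb (81.5 percentile). Of the genes not called, IL23A had 13.1 per kb (99.4 percentile), IL1A 4.34 (86.7 percentile) and LIF 2.18 (59.7 percentile). Whether density and change are related was not tested, and rates of decay were not measured.

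**Figure D5:**
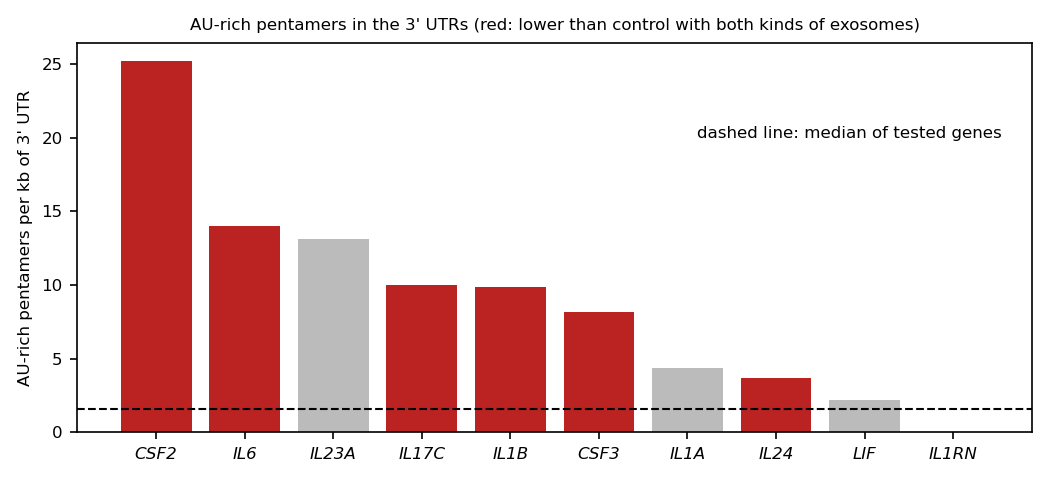
ATTTA pentamers per kb of 3′ UTR in the 10 genes, with red bars for the 6 genes lower than control with both kinds of exosomes, grey bars for the others and a dashed line at the median of tested genes. CSF2 has 25.2 per kb and IL1RN 0; IL23A at 13.1 is grey and IL24 at 3.72 is red.

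Markers of the cells were read beside these results. The 11 squamous markers summed to 4280 to 5524 CPM in control, 5190 to 6012 with hOMF exosomes and 6155 to 6297 with CAF exosomes, and of the 10 tested 5 rose with CAF exosomes and 2 with hOMF exosomes, among them KRT5 (0.72 and 0.51) and KRT14 (1.14 and 0.57). These counts were 3 and 1 without control replicate 3, and KRT14 with hOMF exosomes was 0.35 (edgeR adjusted p 0.167), no longer called. With all libraries 9.51% and 11.8% of all tested genes were called higher with CAF and hOMF exosomes. Fibroblast markers summed to 197 to 241 CPM in control and 215 to 245 with exosomes, with 2 to 5 of the 10 in the table at 0 in each library. Most of each sum was FBLN1, with means of 180 CPM in control, 176 with hOMF exosomes and 189 with CAF exosomes. COL1A1 followed at 37.2, 43.3 and 43.3. LUM alone of the 5 tested was called (1.06 with CAF exosomes and 0.94 with hOMF exosomes). Of the leukocyte markers 4 were tested, and ITGAM (-0.98) and CSF1R (-0.56) fell with hOMF exosomes. CD14 (0.37) and CD68 (-0.00) were not called there, and 0 of the 4 were called with CAF exosomes. The endothelial markers in the table, 4 genes, summed to 22.3 to 31.4 CPM in control and 17.7 to 21.3 with exosomes. Most of this was CDH5, with 24.0 CPM in control, which fell (-0.66 with hOMF exosomes and -0.69 with CAF exosomes). VWF ran the other way (0.70 and 0.73) and PECAM1 was -0.62 and -1.07, and neither was called. Without control replicate 3 PECAM1 was 0.02 and -0.43. Counts of the fibroblast, leukocyte and endothelial lists were the same without control replicate 3. The part of these markers in the changes of the cytokines was not tested.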

How the data were processed

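Poly(A) RNA of 9 samples was sequenced, and the authors deposited 1 table of 16366 genes. Per the file headers it holds expected counts, FPKM and TPM for each library. The expected counts deposited by the authors are RSEM estimates, which divide ambiguous reads among genes, the FPKM values deposited by the authors are scaled by length and depth, and the TPM values deposited by the authors sum alike in each library. RSEM 1.2.8 and Bowtie2 2.2.5 are named in the submitters' processing notes, which also name the mouse build mm10, although all gene identifiers are those of human genes, which leaves the genome used uncertain. Annotation and strand setting: not given in the sources used here. Columns were matched to samples by name, and 0 were left without one.

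Expected counts were rounded, genes kept by filterByExpr (minimum count 10, minimum total 15) and scaled by TMM. The quasi-likelihood test of edgeR 4.0.16 (two-sided, R 4.3.3) used all 9 libraries with group as the only term, and p-values were adjusted by Benjamini-Hochberg over 12470 genes at a threshold of 0.05. Intervals cover 95%. CPM are TMM scaled. TPM served only to compare levels between genes, untested. The code was tested on simulated data. Between 90.5% and 92.0% of expected counts in a library were whole within 0.001, and replicates differed beyond sampling noise (chi-square per degree of freedom 3.08 to 11.1). Alternatives were DESeq2 1.42.0, its size factors, limma 3.58.1 (voom, quantile, FPKM with pseudocounts of 1 and 0.1), no TMM factors, other filters, the 6 libraries compared, a replicate block and leaving out each library. The counts of list members without control replicate 3 were added after seeing the data.

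The 10 genes and the 12 gene lists were chosen with earlier results of these data known. All 10 genes are named; from each other list up to 4 genes with the smallest p in either comparison with control were eligible to be named, with the genes called between the exosome groups and the 5 nearest genes of IL6, CSF2, CSF3 and IL24, of which 1 is not reported here. Genes of the library that stands apart, SOCS2 and FBLN1 were chosen after their values were seen. Gene positions and 3′ UTRs came from GENCODE 29 on GRCh38, taking the APPRIS principal and then the longest transcript, and promoters from the RefSeq table. Figures were drawn with matplotlib 3.10.9.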

Additional observations from a re-analysis of the deposited data

How the results depend on the processing

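CSF2, CSF3, IL6, IL24 and IL1B were lower and called under all 20 alternatives in both comparisons with control, and IL17C under 20 with hOMF exosomes and 16 of 20 with CAF exosomes (the 4 exceptions each leave out 1 library and are given above). Leaving out 1 library moved the number of called genes between 1343 and 2389 with CAF exosomes (1343 without CAF replicate 3, 1389 without control replicate 2, 1442 without control replicate 3), between 1695 and 3096 with hOMF exosomes (1695 without hOMF replicate 2) and between 0 and 8 in the comparison of the exosome groups. That last count, 2, became 32 in DESeq2 and 0 with no TMM factors, quantile normalization, voom, FPKM with either pseudocount, or the 6 libraries alone; the cause was not tested. In limma on FPKM the calls were 64.0% (pseudocount 1) and 64.5% (0.1) higher with CAF exosomes and 68.7% and 69.0% with hOMF exosomes. Signs turned only between the exosome groups, where none was called. There IL23A was 0.085 (quantile), 0.063 (voom) and 0.0019 (FPKM, 0.1), and IL24 was -0.0063 (FPKM, 0.1). Leaving out 1 library gave ranges of -0.28 to 0.061 for IL6, -0.15 to 0.044 for CSF3, -0.12 to 0.24 for IL24, -0.031 to 0.014 for IL1B and -0.19 to 0.40 for IL23A.

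Replicate numbers recur in all groups, but the numbers do not pair the libraries: correlations of deviations were -0.154 to 0.140 for same-numbered libraries and -0.143 to 0.181 for others, and 0 of 9 libraries correlated best with its own number in both other groups. A replicate block gave 2101, 2718 and 2 calls in the 3 comparisons. Genes under about 10 CPM rest on few reads, and the small counts of IL1RN allow no statement on its change.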
